A study of Homo sapiens with 24 samples.

Results

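The STAT and IRF interferon regulators are transcription factors that carry interferon, cytokine and microbial signals to the genome. Here they were taken as a list of 9 genes, STAT2, STAT3, IRF1, IRF2, IRF3, IRF5, IRF7, IRF8 and IRF9, and found on the arrays by the gene symbol that the platform annotation gives each probe. Of the 9, 8 had a named probe and 8 had a detected one, while STAT2 was not analysed here. Those 8 genes carried 14 of the 47322 probes, and 13 of the 14 were detected on all 3 arrays of at least 1 group. The 8 genes are set below against all 10246 genes tested.

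The cells were P493, an established human B cell line in which tetracycline (TET) switches off a MYC transgene. One arm received MST-312, a small-molecule telomerase inhibitor. These cells spent 48 h in TET and MST-312, were then moved to medium that held MST-312 but no TET, and were sampled 0, 4, 8 and 24 h after that release. The other arm had no treatment and was labelled with the same release times of 0, 4, 8 and 24 h. The sources used here do not give its TET schedule, and a difference in TET cannot be told apart from MST-312. Each of the 8 groups had 3 arrays, 24 in all. The labels do not say whether the 3 were separate cultures, so the p-values may measure only technical spread. As these are bulk samples of 1 cell line, fewer cells expressing a gene and less RNA per cell cannot be told apart.

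STAT proteins wait in the cytoplasm until a Janus kinase bound to a cytokine receptor phosphorylates them, upon which they pair and enter the nucleus. Type I interferon joins STAT2 and IRF9 in a complex called ISGF3, which binds the interferon-stimulated response element (ISRE) of antiviral genes, while paired STAT proteins such as STAT3 bind the gamma-activated sequence (GAS). IRF3, IRF5 and IRF7 are switched on by sensors of foreign nucleic acid and turn on the interferon genes themselves, IRF1 and IRF2 act on overlapping sites as activator and antagonist, and IRF8 shapes B cell and myeloid development.

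RefSeq promoter sequence of build GRCh38.p14 was at hand for 6 of the 9 genes, STAT2, STAT3, IRF1, IRF5, IRF8 and IRF9, in 10 windows that each covered the 250 bases before a transcription start. Both strands were searched for the ISRE core, a pair of GAAA with 2 bases between them, the GAS core TTCNNNGAA and the MYC-binding E-box CACGTG. Of 35116 RefSeq windows of the same length, 3.02% held the ISRE core, 6.57% the GAS core and 6.34% the E-box. None of the 10 windows held the ISRE core. IRF9 and IRF1 are printed because theirs were the windows with a match. The IRF9 window lies at chr14:24161015-24161264 on the plus strand and the IRF1 window at chr5:132490774-132491023 on the minus strand. Capitals mark the matches: in IRF9 the E-box from 71 to 66 bases before the start and a GAS core from 63 to 55 bases before it, with no overlap, and in IRF1 a GAS core from 124 to 116 bases before the start.
IRF9: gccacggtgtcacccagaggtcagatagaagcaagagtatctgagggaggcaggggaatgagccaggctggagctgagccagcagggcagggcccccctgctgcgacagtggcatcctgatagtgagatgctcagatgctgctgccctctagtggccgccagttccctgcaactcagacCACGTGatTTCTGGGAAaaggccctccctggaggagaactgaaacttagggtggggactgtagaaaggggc
IRF1: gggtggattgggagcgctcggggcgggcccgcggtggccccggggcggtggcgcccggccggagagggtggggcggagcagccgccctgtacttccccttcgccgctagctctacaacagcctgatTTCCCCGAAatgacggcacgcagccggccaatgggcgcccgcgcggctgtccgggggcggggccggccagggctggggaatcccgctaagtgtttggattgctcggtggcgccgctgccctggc
A match of letters is a description of the sequence and not a measured binding site.

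Between 34.3% and 38.0% of the probes were detected on each array, and the mean raw intensity ranged from 527 to 764. Of 6 B cell markers with a named probe, MS4A1, CD79A, CD79B, CD22 and CD74 were detected on all 24 arrays and PAX5 on 0 arrays. Their summed normalised intensity at 0 h was 53701 to 58655 on the MST-312 arrays and 81280 to 83883 on the untreated arrays. Of the 5 tested, 4 were lower with MST-312 at 0 h, CD74 the most (-1.25). MS4A1 was higher (1.19), though its other probe was lower (-0.84). At 24 h the B cell marker sum was 31877 to 35145 with MST-312 and 36889 to 40053 without, while 3 of the 5 were higher and 2 lower. Of 6 T cell markers, CD3E was detected on 0 arrays, CD8A on 1, CD8B on 2, CD3D on 3, CD3G on 8 and CD2 on 13. Their summed normalised intensity at 0 h was 244 to 286 on the MST-312 arrays and 321 to 382 on the untreated arrays. Neither CD2 nor CD3G was detected on any MST-312 array at 0 h, and both passed the filter through other groups. Against a detection floor CD2 was at least 1.97-fold lower with MST-312 (limma adjusted p = 1e-06) and CD3G at least 1.12-fold lower (adjusted p = 0.00985). These p-values use the undetected intensities and are not separate support. Of 5 monocyte and macrophage markers, FCGR1A was detected on 0 arrays, CD163 on 3, CSF1R on 7, LYZ on 22 and CD14 on 24. At 24 h CD14 was higher with MST-312 (0.91) and LYZ lower (-1.85). The summed normalised intensity of the 5 monocyte and macrophage markers was 512 to 544 on the MST-312 arrays and 949 to 1134 on the untreated arrays at 0 h. LYZ in that list was lower with MST-312 at 0 h by 1.52 on the log2 scale (limma adjusted p = 2.06e-08). The summed intensity of 8 epithelial and fibroblast markers was 691 to 764 with MST-312 and 406 to 439 without at 0 h, and 1518 to 1670 with MST-312 and 722 to 725 without at 24 h. EPCAM was the member of that list seen on all 24 arrays, and it was higher with MST-312 by 2.11 at 0 h (limma adjusted p = 1.1e-12). Of the others, KRT18 was detected on 1 array, COL1A2 on 3, KRT8 on 4, COL3A1 on 6, KRT19 on 8, CDH1 on 9 and COL1A1 on 10. The part of these markers in the results below was not tested.

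Seen together, the 8 genes did not move one way. In cells given MST-312, IRF9, IRF3 and IRF7 were lower than in untreated cells at each of the 4 times, and IRF8 was higher at each of the 4. STAT3 was higher with MST-312 only in the 8 h and 24 h comparisons, IRF1 was lower at 0 h and 24 h, and IRF5 was lower at 0, 8 and 24 h but higher at 4 h. IRF2 passed the test in none of the 4. A gene is called changed when limma's adjusted p, over all 10246 genes, is below 0.05. By that rule 6 of the 8 were called at 0 h, where 59.3% of all genes were, and 5 of 8 at 4 h, where 59.4% of all genes were. At 8 h 6 of 8 were called against 57.7% of all genes, and at 24 h 7 of 8 against 61.8%. With 8 genes these counts lie near the background, so they say nothing particular of the group, and the account that follows is of single genes. All intensities below are log2 normalised values of a gene's brightest detected probe, and levels of different genes are not compared.

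**Figure D1:**
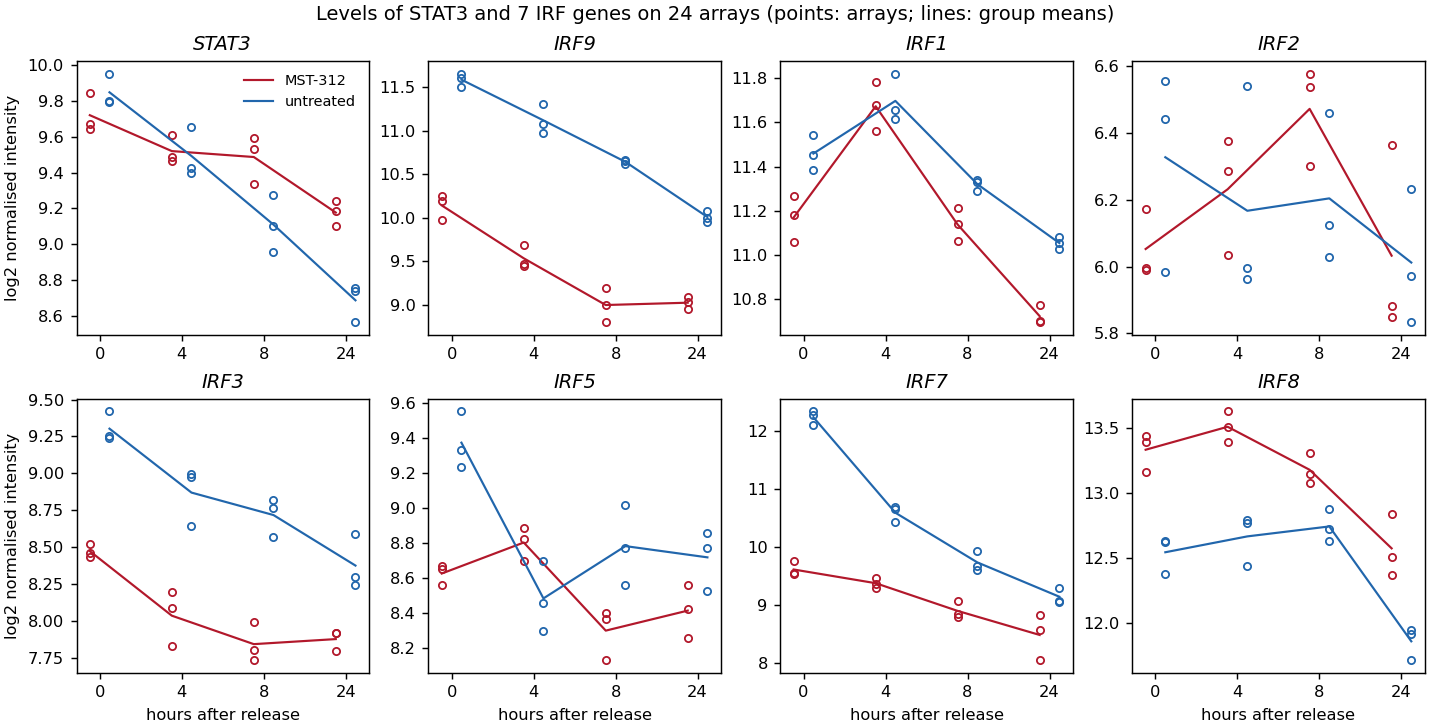
Log2 normalised intensity of STAT3 and 7 IRF genes (y axis, a separate scale per gene) at 0, 4, 8 and 24 h after release (x axis, equally spaced), with MST-312 in red and untreated in blue. Points are single arrays, 3 per group, and lines join group means; the mean of IRF7 is 9.61 with MST-312 and 12.24 without at 0 h, and 8.49 with MST-312 and 9.15 without at 24 h.

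STAT3 transmits signals of interleukin-6, interleukin-10 and interleukin-21 and favours survival of B cells. Its intensity at 0 h was 9.67, 9.84 and 9.64 on the MST-312 arrays and 9.79, 9.95 and 9.80 on the untreated arrays, and the 2 groups overlapped. At 24 h STAT3 was 9.24, 9.10 and 9.19 with MST-312 and 8.75, 8.56 and 8.74 without, so that every MST-312 array lay above every untreated one. The difference was -0.13 ± 0.10 at 0 h (SE, adjusted p = 0.282), 0.03 ± 0.10 at 4 h (adjusted p = 0.83), 0.38 ± 0.10 at 8 h (adjusted p = 0.00278) and 0.49 ± 0.10 at 24 h (adjusted p = 0.000238), the last a 1.40-fold higher level. STAT3 was thus the one member whose groups overlapped at 0 h and 4 h and separated at 8 h and 24 h. With each array scaled to its median instead of quantile-normalised, the 8 h difference was 0.08 (adjusted p = 0.599) and the 4 h one was -0.31 (adjusted p = 0.0366). Under that scaling STAT3 was also called lower with MST-312 at 0 h (adjusted p = 0.0442). The results at 0, 4 and 8 h thus do not hold under every scaling.

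STAT3 had 3 detected probes. In the fit of all detected probes they differed between MST-312 and untreated cells at 24 h by 0.49 (adjusted p = 0.000378), 0.46 (adjusted p = 0.00347) and 0.39 (adjusted p = 0.0413), and the arrays did not overlap for any of the 3. At 8 h only the brightest was called, while the other 2 differed by 0.22 (adjusted p = 0.156) and 0.14 (adjusted p = 0.474).

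IRF9 is the DNA-binding subunit of ISGF3 and is itself an interferon-stimulated gene. It stood at 10.20, 10.25 and 9.98 on the MST-312 arrays at 0 h and at 11.60, 11.66 and 11.50 on the untreated arrays. At 24 h IRF9 stood at 8.95, 9.10 and 9.03 with MST-312 and between 9.95 and 10.08 without. The arrays of the 2 arms did not overlap at any of the 4 times. IRF9 was 2.72-fold lower with MST-312 at 0 h (log2 difference -1.44 ± 0.11, adjusted p = 3.04e-10), 3.00-fold lower at 4 h (adjusted p = 8.11e-11), 3.12-fold lower at 8 h (adjusted p = 5.42e-11) and 1.98-fold lower at 24 h (adjusted p = 8.19e-08). The level in MST-312 cells before release, 10.14 ± 0.15 (SD, n = 3), overlapped that of untreated cells 24 h after release, 10.01 ± 0.07 (SD, n = 3).

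IRF1 is an activator induced by interferon-gamma and NF-kB, and IRF2 is its relative that mostly represses the same sites. IRF1 stood at 11.18, 11.27 and 11.06 on the MST-312 arrays at 0 h and at 11.45, 11.54 and 11.38 on the untreated ones. At 24 h IRF1 stood at 10.70, 10.77 and 10.70 with MST-312 and at 11.03, 11.08 and 11.05 without, and the arms did not overlap at either time. IRF1 was 1.22-fold lower with MST-312 at 0 h (-0.29 ± 0.08, adjusted p = 0.00346) and 1.26-fold lower at 24 h (-0.33 ± 0.08, adjusted p = 0.00107). At 4 h the difference was -0.02 ± 0.08 (adjusted p = 0.811, 95% interval -0.19 to 0.14) with overlapping arrays, whereas under median scaling IRF1 was called lower there (-0.33, adjusted p = 0.00606). At 8 h it was -0.18 ± 0.08, just outside the threshold (adjusted p = 0.0528), and 7 of the alternative settings and the omission of any 1 of 6 arrays (-0.22 to -0.18) put it inside. The 7 include quantile normalisation without background correction and the authors' values, which had equal all-gene medians and are not separate evidence.

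IRF2 was close to background throughout, with group means from 6.47 on the MST-312 arrays at 8 h down to 6.01 on the untreated arrays at 24 h. Its second probe was detected on 6 arrays and did not pass the filter. The difference between MST-312 and untreated cells was -0.28 at 0 h (95% interval -0.65 to 0.10), 0.06 at 4 h (-0.31 to 0.44), 0.27 at 8 h (-0.11 to 0.64) and 0.02 at 24 h (-0.35 to 0.40). Without untreated 0 h replicate 1 the 0 h difference was -0.45 and was called. The arms overlapped at all 4 times, and the width of these intervals leaves room for changes as large as those of IRF1.

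IRF3 is present in resting cells and starts interferon-beta transcription once TBK1 phosphorylates it. It stood at 8.43, 8.46 and 8.52 with MST-312 at 0 h and at 9.42, 9.24 and 9.25 without, and at 7.92, 7.92 and 7.80 with MST-312 at 24 h and 8.59, 8.29 and 8.24 without. The MST-312 arrays lay below the untreated ones at each of the 4 times. IRF3 was lower with MST-312 by 1.78-fold at 0 h (-0.83 ± 0.12, adjusted p = 3.5e-06), 1.78-fold at 4 h (adjusted p = 3.28e-06), 1.83-fold at 8 h (adjusted p = 1.99e-06) and 1.41-fold at 24 h (adjusted p = 0.000941).

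IRF5 acts downstream of Toll-like receptors and drives inflammatory cytokine genes and B cell responses. Its brightest probe stood at 8.65, 8.67 and 8.56 on the MST-312 arrays at 0 h and at 9.55, 9.33 and 9.23 on the untreated ones, a 1.68-fold lower level with MST-312 (-0.75 ± 0.13, adjusted p = 4.24e-05). At 4 h it stood at 8.82, 8.89 and 8.70 with MST-312 and at 8.70, 8.30 and 8.46 without, and was called higher (0.32 ± 0.13, adjusted p = 0.0387). The group mean with MST-312 was 8.63 at 0 h, 8.80 at 4 h, 8.30 at 8 h and 8.41 at 24 h, and without it 9.37 at 0 h, 8.48 at 4 h, 8.78 at 8 h and 8.72 at 24 h. It was called lower with MST-312 at 8 h (-0.48 ± 0.13, adjusted p = 0.00309) and, with overlapping arrays, at 24 h (-0.30 ± 0.13, adjusted p = 0.0466), a call that leaving out any 1 of 13 arrays removed, with differences of -0.31 to -0.23 there. That 24 h call was also lost without the detection filter and with the mean of detected probes. The fit of all detected probes and the fit of only the arrays compared lost it too. The 4 h call was lost under median scaling (-0.016, adjusted p = 0.932) and without untreated 4 h replicate 3 (0.30), MST-312 4 h replicate 1 (0.31), MST-312 4 h replicate 2 (0.28) or untreated 4 h replicate 2 (0.225). The 4 h call was also lost without the detection filter, with the mean of detected probes and with only the arrays compared. In addition, the second IRF5 probe was called at none of the 4 times, with differences of -0.44 at 0 h (adjusted p = 0.0756), -0.08 at 4 h (adjusted p = 0.764), -0.22 at 8 h (adjusted p = 0.392) and 0.12 at 24 h (adjusted p = 0.659).

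IRF7 is the interferon-induced amplifier of the response: ISGF3 raises it, and it then turns on further interferon genes. It stood at 9.56, 9.75 and 9.53 on the MST-312 arrays at 0 h and at 12.27, 12.33 and 12.10 on the untreated arrays. All untreated arrays lay above all MST-312 arrays, and the gene was 6.15-fold lower with MST-312 (-2.62 ± 0.15, adjusted p = 7.06e-12), the largest difference of any member in the 4 treatment comparisons. After release both arms stood lower, the untreated one by more. At 4 h it stood at 9.47, 9.37 and 9.30 with MST-312 and at 10.66, 10.43 and 10.69 without (2.32-fold lower, adjusted p = 5.67e-07). At 8 h it stood at 8.84, 8.79 and 9.07 with MST-312 and at 9.93, 9.60 and 9.68 without (1.78-fold lower, adjusted p = 6.66e-05). At 24 h it stood at 8.57, 8.05 and 8.84 with MST-312 and at 9.08, 9.06 and 9.30 without (1.58-fold lower, adjusted p = 0.000678). The arms overlapped at none of the 4 times, and the gap between their means was smaller at each later time.

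The 3 detected IRF7 probes were all lower with MST-312 at 0 h. The second brightest was 8.45-fold lower at 0 h (adjusted p = 1.21e-11) and 1.84-fold lower at 24 h (adjusted p = 0.000234), where it was detected on 2 of 3 MST-312 arrays and on 3 of 3 untreated arrays. The dimmest was detected on 0 of 3 MST-312 arrays and 3 of 3 untreated arrays at 0 h, at least 2.85-fold lower (adjusted p = 1.59e-06), and on no array of either arm at 8 h and 24 h, so it gives no fold there. This dimmest probe passed the filter only through untreated groups, so its lower value at 0 h is not separate support. Throughout, "at least" compares the mean of the brighter arm with a floor, which on each array of the undetected arm is the dimmest signal called detected there or, where higher, the value of the probe itself. The adjusted p beside such a bound is limma's for the normalised values, undetected ones included, and does not test the bound.

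IRF8 is a lineage factor of B cells, dendritic cells and monocytes that pairs with PU.1 or IKAROS family partners. It stood at 13.40, 13.44 and 13.17 on the MST-312 arrays at 0 h and at 12.63, 12.63 and 12.38 on the untreated arrays. At 24 h IRF8 stood at 12.84, 12.38 and 12.51 with MST-312 and at 11.92, 11.72 and 11.95 without, and MST-312 lay above untreated without overlap at all 4 times. IRF8 was 1.73-fold higher with MST-312 at 0 h (0.79 ± 0.13, adjusted p = 1.93e-05), 1.79-fold higher at 4 h (adjusted p = 8.43e-06), 1.35-fold higher at 8 h (adjusted p = 0.00597) and 1.64-fold higher at 24 h (adjusted p = 5.72e-05). Under median scaling the 8 h difference was 0.09 (adjusted p = 0.594).

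**Figure D2:**
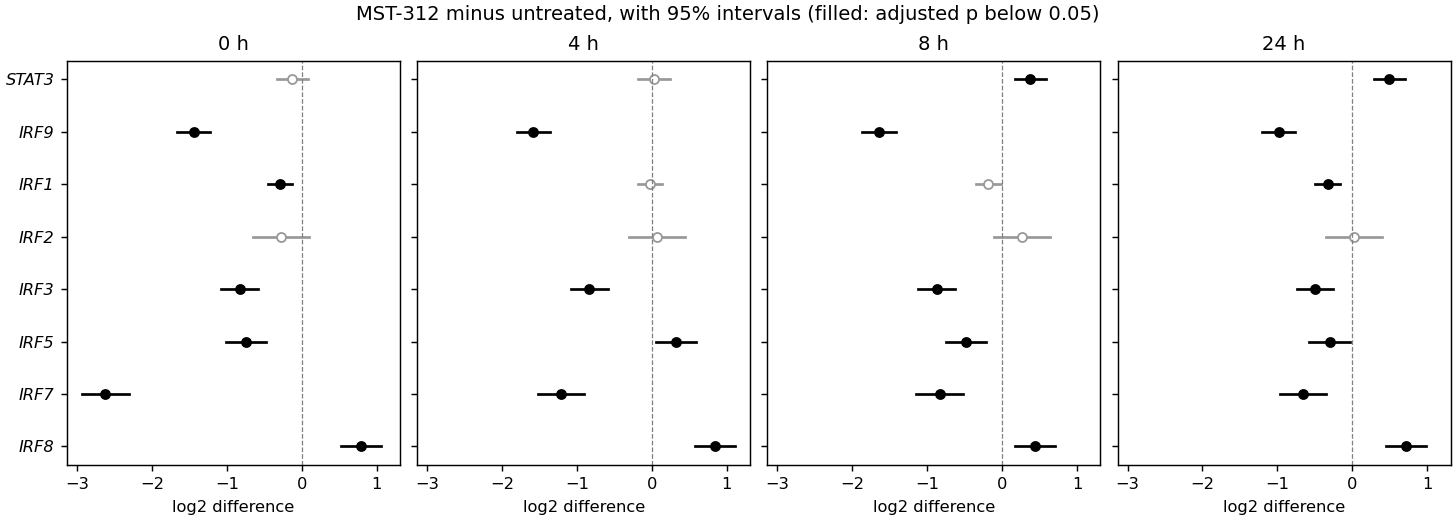
Log2 difference, MST-312 minus untreated (x axis), of each gene (rows) at 0, 4, 8 and 24 h (panels), with 95% intervals. Filled points have an adjusted p below 0.05; IRF9, IRF3 and IRF7 lie left of 0 in all 4 panels and IRF8 right of 0 in all 4, while IRF7 runs from -2.62 at 0 h to -0.66 at 24 h.

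The second question of the design is how the genes moved after the labelled release within each arm. With MST-312, IRF1 rose and IRF9 and IRF3 fell at 4 h, 3 of 8 against 36.1% of all genes. In the untreated arm IRF1 also rose at 4 h, and STAT3, IRF9, IRF3, IRF5 and IRF7 fell, 6 of 8 against 44.9% of all genes. The other settings called 4 to 6 of the 8. Under median scaling STAT3 (-0.21, adjusted p = 0.19) and IRF3 (-0.31, adjusted p = 0.0982) were not called, and neither was the mean of the STAT3 probes (-0.20, adjusted p = 0.108). At 8 h 4 of 8 were called with MST-312, where 40.9% of all genes were (22% lower), and 5 of 8 without, where 51.2% were (26.4% lower), all of them lower. At 24 h 6 of 8 were called with MST-312 (all genes: 51%, 26.5% lower) and 7 of 8 without (all genes: 59.6%, 30.5% lower), all of them lower. In both arms the 3 comparisons share the 0 h arrays, so they are not separate evidence.

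IRF1 was the member with a rise after release. It was 1.42-fold higher at 4 h than at 0 h with MST-312 (0.50 ± 0.08, adjusted p = 3.99e-05) and 1.18-fold higher without (0.24 ± 0.08, adjusted p = 0.0178), and in both arms all 4 h arrays lay above all 0 h arrays. At 24 h IRF1 was below its 0 h level by 1.36-fold with MST-312 (adjusted p = 7.33e-05) and by 1.32-fold without (adjusted p = 0.00016). The untreated rise at 4 h was lost without untreated 0 h replicate 3 (0.20) or untreated 4 h replicate 3 (0.18), and under cyclic loess (0.15, adjusted p = 0.121), while the untreated fall at 24 h was lost under median scaling (-0.18, adjusted p = 0.14). With only the arrays compared, the untreated rise at 4 h was not called either.

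In untreated cells IRF7 fell furthest of the 8 genes at each time. At 24 h it was 2.18-fold below its 0 h level with MST-312 (-1.13 ± 0.15, adjusted p = 2.31e-06) and 8.51-fold below it without (-3.09 ± 0.15, adjusted p = 7.18e-13). IRF9 fell at 4 h by 1.52-fold with MST-312 (adjusted p = 0.000127) and by 1.38-fold without (adjusted p = 0.00111), and at 24 h by 2.17-fold with MST-312 (adjusted p = 2.47e-08) and 2.98-fold without (adjusted p = 9.15e-11). With MST-312 the IRF9 arrays at 8 h (8.80 to 9.19) and 24 h (8.95 to 9.10) overlapped, whereas in untreated cells no 2 of the 4 times did.

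STAT3 fell at 24 h by 1.46-fold with MST-312 (-0.54 ± 0.10, adjusted p = 0.000111) and by 2.24-fold without (-1.16 ± 0.10, adjusted p = 3.45e-09). IRF3 fell at 24 h by 1.51-fold with MST-312 (adjusted p = 0.000229) and by 1.90-fold without (adjusted p = 8.18e-07). IRF8 kept overlapping levels at 4 h and 8 h and was 1.69-fold lower at 24 h with MST-312 (adjusted p = 4.25e-05) and 1.61-fold lower without (adjusted p = 9.79e-05). IRF5 was called lower at 4, 8 and 24 h in untreated cells, by 1.85-fold at 4 h (adjusted p = 1.01e-05), and with MST-312 only at 8 h (-0.33, adjusted p = 0.049), which leaving out any 1 of 13 arrays also removed (-0.36 to -0.24). That 8 h call was lost as well under median scaling, without the detection filter, with averaged probes and in the fit of all detected probes. In untreated cells the second IRF5 probe had group means of 7.54 at 0 h, 7.24 at 4 h, 6.98 at 8 h and 6.82 at 24 h. Its mean was thus lowest at 24 h, whereas that of the brightest probe was lowest at 4 h. IRF2 was called in none of the 6 release comparisons, its largest change being 0.42 at 8 h with MST-312 (adjusted p = 0.0687). That change was called when only the arrays compared were fitted (adjusted p = 0.0231) and without untreated 4 h replicate 2 (0.42), and the untreated 24 h change was called without untreated 0 h replicate 1 (-0.49).

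Whether MST-312 altered the change since 0 h was tested as an interaction, the change with MST-312 minus the change without. At 4 h IRF5 and IRF7 were called (all genes: 22.7%, 11.2% positive), at 8 h STAT3 and IRF7 (all genes: 20.1%, 10% positive), and at 24 h STAT3, IRF9 and IRF7 (all genes: 29.9%, 14.5% positive), all with a positive difference. For IRF7 the difference was 1.41 ± 0.21 at 4 h (adjusted p = 6.24e-05), 1.79 ± 0.21 at 8 h (adjusted p = 4.95e-06) and 1.96 ± 0.21 at 24 h (adjusted p = 6.56e-07), and both brighter probes were called at all 3 times. The dimmest probe was not detected with MST-312 at 0 h, 8 h or 24 h, so its change with MST-312 was not measured. In the 2 brighter probes the change since 0 h was smaller with MST-312, from a lower starting level.

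STAT3 had a difference of 0.51 ± 0.14 at 8 h (adjusted p = 0.0147), lost under median scaling (0.39, adjusted p = 0.149), and of 0.62 ± 0.14 at 24 h (adjusted p = 0.00232). Its other probes gave 0.74 (adjusted p = 0.00409) and 0.55 (adjusted p = 0.0803) at 24 h. IRF9 passed only at 24 h, with 0.46 ± 0.15 (adjusted p = 0.0244). That call was lost under median scaling (0.45, adjusted p = 0.12) and without untreated 0 h replicate 2 (0.42), untreated 24 h replicate 3 (0.43), MST-312 0 h replicate 3 (0.38) or MST-312 24 h replicate 2 (0.42). For IRF5 the 4 h difference was 1.06 ± 0.18 (adjusted p = 0.000249), against 0.36 ± 0.28 in its second probe (adjusted p = 0.464). IRF1, IRF3 and IRF8 passed in none of the 3, with differences between -0.35 and 0.33, except that IRF1 at 4 h passed without untreated 4 h replicate 3 (0.33) and under cyclic loess (0.37). IRF2 had 0.54 ± 0.25 at 8 h (adjusted p = 0.147), which passed with the replicate number as a block within each time (adjusted p = 0.0455).

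**Figure D3:**
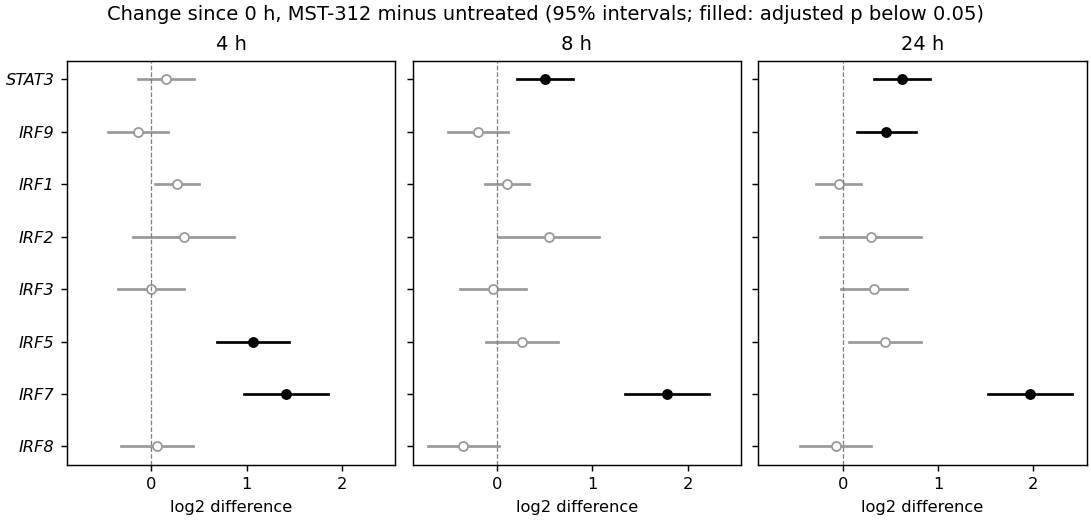
Change since 0 h with MST-312 minus the change since 0 h without it (x axis, log2) for each gene (rows) at 4, 8 and 24 h (panels), with 95% intervals and filled points for an adjusted p below 0.05. IRF7 lies at 1.41, 1.79 and 1.96 in the 3 panels, and IRF3 lies at 0.00, -0.04 and 0.33 with every interval crossing 0.

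**Figure D4:**
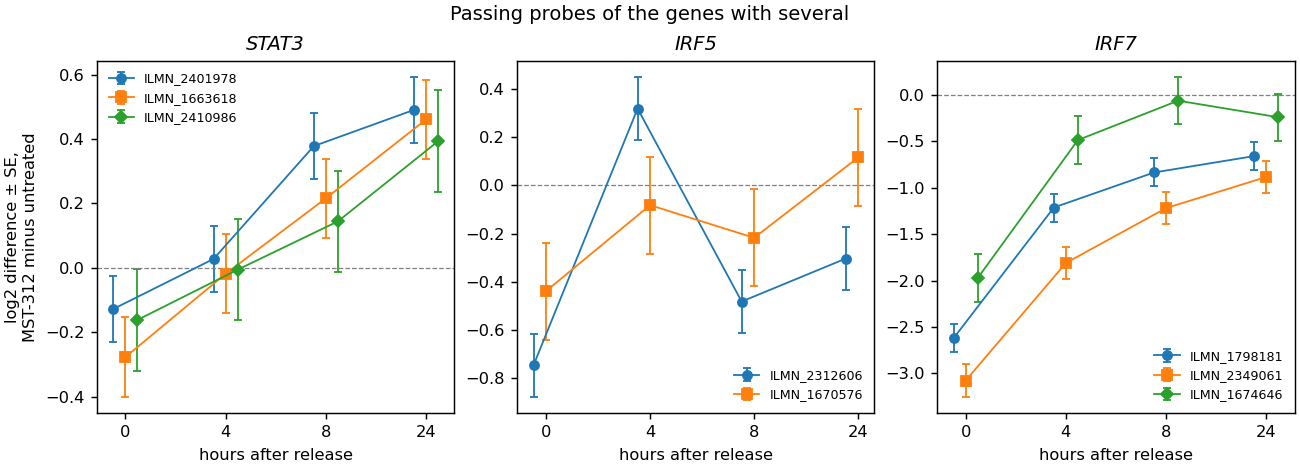
Log2 difference ± SE, MST-312 minus untreated (y axis), at 0, 4, 8 and 24 h (x axis) for every detected probe of STAT3, IRF5 and IRF7, named by its probe identifier. The 3 STAT3 probes lie between 0.39 and 0.49 at 24 h, the 2 IRF5 probes differ in sign at 4 h (0.32 and -0.08), and the 2 brighter IRF7 probes lie at -2.62 and -3.08 at 0 h. The dimmest IRF7 probe was undetected with MST-312 at 0, 8 and 24 h, so its points there are no measured differences.

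Across the 24 arrays IRF3 and IRF9 had the most alike profiles of any 2 members (Pearson r = 0.97), followed by IRF9 and IRF7 (r = 0.90) and IRF3 and IRF7 (r = 0.89). IRF8 stood apart from these, with r = -0.27 against IRF9 and r = -0.10 against IRF7, and the highest r of IRF2 with any member was 0.28. Among all tested genes, the nearest to IRF9 were ARHGAP9 and MVP (r = 0.98 each), and the nearest to IRF7 were the integrin genes ITGB2 (r = 0.98) and ITGAX (r = 0.97) and the interferon-induced IFITM2 (r = 0.96). STAT3 lay nearest to OCEL1 and NPC2 (r = 0.94 each), IRF1 to HIVEP3 (r = 0.94), IRF5 to MED16 (r = 0.88), IRF8 to IER5 and DCAF12 (r = 0.95 each) and IRF2 to SMPD1 (r = 0.58). These are descriptions over 24 arrays that share 8 groups and 1 normalisation.

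Of 11 tested interferon and cytokine receptors, 3 were higher and 4 lower with MST-312 at 0 h, and 1 was higher and 4 lower at 24 h, beside 59.3% of all genes called at 0 h and 61.8% at 24 h. Counts of this and the lists that follow that lie near those shares say nothing particular of a list. IFNAR1, a subunit of the type I interferon receptor, had means of 7.44 with MST-312 and 8.67 without at 0 h (-1.22 ± 0.18, adjusted p = 7.1e-06) and of 6.58 with MST-312 and 8.44 without at 24 h (-1.86 ± 0.18, adjusted p = 2.09e-08). IL10RA, the ligand-binding chain for interleukin-10, fell by 1.37 at 0 h (adjusted p = 2.33e-06) and by 2.21 at 24 h (adjusted p = 2.56e-09). IFNGR2, a chain of the interferon-gamma receptor, was higher by 0.60 at 0 h (adjusted p = 3.03e-06). The brightest probe of IL21R, the interleukin-21 receptor, was higher by 1.40 at 0 h (adjusted p = 5.48e-13), but its other probe differed by -0.04 (adjusted p = 0.868). Of 10 interferon genes with a named probe, 1 was detected, IFNA2, and it was not called at 0 h (0.16, adjusted p = 0.494) or at 24 h (0.01, adjusted p = 0.955).

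Of 3 tested Janus kinases, JAK2 and TYK2 were lower with MST-312 at 0 h and 24 h, where 31.7% and 32.9% of all genes were lower. TYK2, which serves the type I interferon receptor, had means of 10.64 with MST-312 and 11.25 without at 0 h (-0.61 ± 0.09, adjusted p = 3.66e-06). JAK2 had means of 6.39 with MST-312 and 7.54 without at 0 h (-1.15 ± 0.13, adjusted p = 1.56e-07), and at 24 h it was not detected on any MST-312 array and was at least 2.19-fold lower (adjusted p = 1.49e-10). Among 7 other STAT and IRF family genes, 3 were higher and 3 lower at 0 h, and 4 were higher and 2 lower at 24 h. Of all genes, 59.3% were called at 0 h and 61.8% at 24 h. STAT6, the interleukin-4 factor, was lower with MST-312 by 1.06 at 0 h (adjusted p = 1.28e-10) and by 0.77 at 24 h (adjusted p = 1.24e-08). IRF4, the activation and plasma cell factor, was higher by 1.00 at 0 h (adjusted p = 6.71e-05) and by 0.90 at 24 h (adjusted p = 0.000209). STAT5A and STAT5B went opposite ways at 24 h, STAT5A higher by 1.34 (adjusted p = 6.16e-08) and STAT5B at least 1.71-fold lower (adjusted p = 1.18e-06).

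Of 14 tested inhibitors of JAK-STAT signalling, 5 were higher and 4 lower with MST-312 at 0 h, and 6 were higher and 3 lower at 24 h, near the 59.3% and 61.8% of all genes called. The phosphatase PTPN6 fell by 1.75 at 0 h (adjusted p = 1.65e-10) and by 1.07 at 24 h (adjusted p = 2.02e-07), though its other probe differed by 0.18 at 24 h (adjusted p = 0.376). PIAS4, a SUMO ligase, was higher by 0.89 at 24 h (adjusted p = 9.91e-07). Of 22 tested sensors and kinases upstream of IRF3, IRF5 and IRF7, 4 were higher and 14 lower at 0 h, with a median of -0.89 against -0.02 over all genes, where 31.7% were lower. The cytosolic RNA sensor DHX58 fell by 2.66 (adjusted p = 5.71e-11), the RNA sensor RIGI fell by 2.04 (adjusted p = 1.25e-07), and the Toll-like receptor adaptor MYD88 fell by 2.03 (adjusted p = 2.88e-10). TRAF3 and TANK, which link sensors to TBK1, were higher by 0.88 (adjusted p = 3.67e-05) and 0.78 (adjusted p = 1.95e-07), though the other TANK probe was not called (1.02, adjusted p = 0.125). At 24 h 4 of the 22 were higher and 11 lower, TLR7 and TLR9 among the lower (-0.98, adjusted p = 2.16e-07 and -1.29, adjusted p = 0.000372).

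Downstream, 32 of 34 tested ISGF3 target genes were lower with MST-312 at 0 h and none higher, with a median of -2.48 (-2.33 with the 4 undetected in MST-312 cells at their bound). At 24 h 23 were lower and 3 higher, with a median of -0.72 (-0.59 with 7 at their bound) against -0.03 over all genes, of which 32.9% were lower. The tested genes include those at their bound, which were undetected in the dimmer arm and passed the filter through other groups. Calls of such genes are not separate support. MX1, a GTPase that blocks viral replication, had means of 8.72 with MST-312 and 14.35 without at 0 h (-5.63 ± 0.14, adjusted p = 2.74e-17) and fell by 4.06 at 24 h (adjusted p = 2.96e-15). IFI44L, an interferon-induced protein, fell by 6.99 at 0 h (adjusted p = 5.95e-23) and in its other probe fell by 3.35.

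Of 13 tested STAT3 targets, 6 were higher and 2 lower with MST-312 at 0 h (median 0.36), where 59.3% of all genes were called, near the share of the list. At 24 h 8 were higher and 1 lower (median 0.35), where 61.8% of all genes were called and 28.9% were higher. The kinase PIM1 was higher by 1.66 at 0 h (adjusted p = 5.88e-10) and by 1.27 at 24 h (adjusted p = 2.87e-08), FOS by 1.03 at 0 h (adjusted p = 2.7e-06) and by 2.42 at 24 h (adjusted p = 9.24e-12), while BIRC5, an inhibitor of cell death that also serves mitosis, fell by 2.01 at 0 h (adjusted p = 1.73e-10) and fell by 2.57 at 24 h (adjusted p = 3.21e-12). At 0 h the STAT3 arrays of the 2 arms overlapped, while at 24 h they did not. Of 8 DNA-binding and coactivator partners, 1 was higher and 5 lower at 0 h, and 2 were higher and 1 lower at 24 h. Of all genes, 59.3% were called at 0 h and 61.8% at 24 h. IKZF1, which encodes IKAROS, was lower with MST-312 by 0.87 at 0 h (adjusted p = 0.00147). The coactivator CREBBP was higher by 0.81 at 0 h (adjusted p = 9.37e-08) and by 0.94 at 24 h (adjusted p = 9.99e-09), though its other probe was not called at 0 h (0.42, adjusted p = 0.209) or at 24 h (0.42, adjusted p = 0.205).

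**Figure D5:**
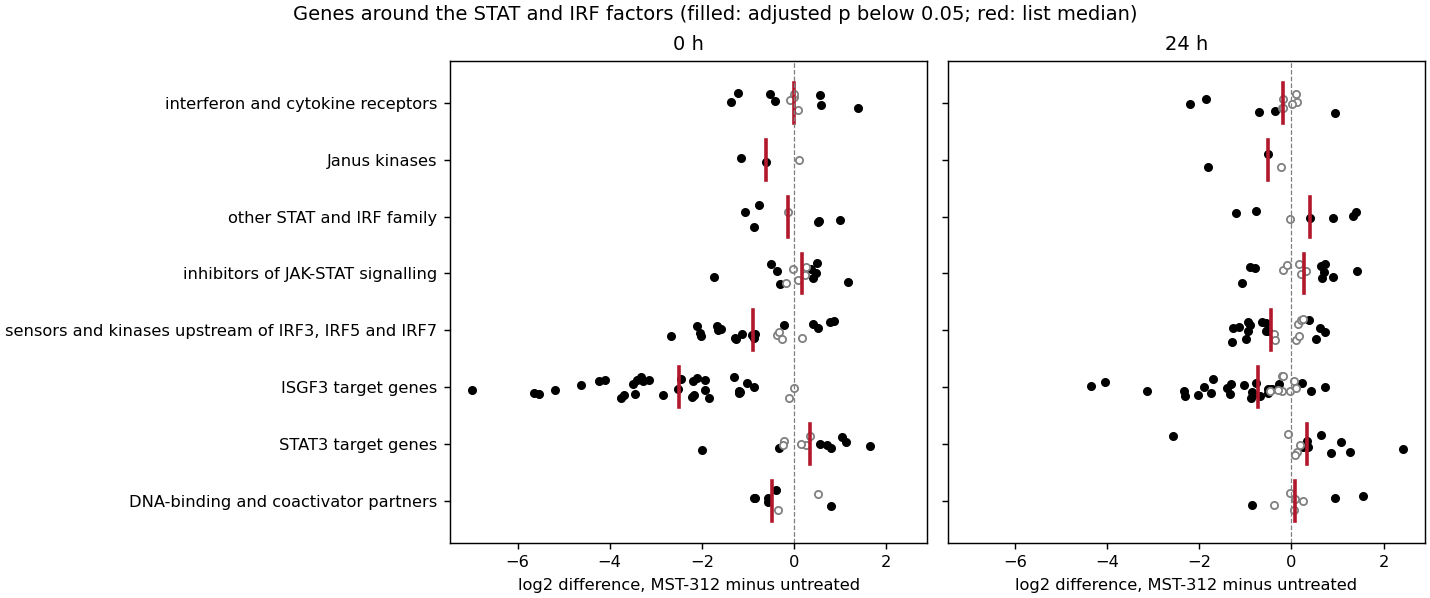
Log2 difference, MST-312 minus untreated (x axis), of every tested gene of 8 lists around the STAT and IRF factors (rows) at 0 h (left) and 24 h (right). Each point is a gene, filled where its adjusted p is below 0.05, and the red bar is the list median; that of the ISGF3 targets lies at -2.48 at 0 h and -0.72 at 24 h.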

How the data were processed

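RNA of P493 cells was measured on Illumina beadchips as biotinylated cRNA, per the labels' protocols. The deposited raw table gives, per the file headers, the intensity of 47322 probes on every array beside its detection p-value. A second table holds the authors' processed intensity, by a method the sources used here do not give, and served as an alternative. In every comparison its median difference over all genes equalled that of quantile normalisation without background correction. For the values here, normexp background correction from the detection p-values (offset 16) was followed by quantile normalisation and log2 (limma 3.58.1, R 4.3.3).

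A probe was kept if its detection p was below 0.05 on the 3 arrays of any group. This kept 17882, and 13518 of them had 1 symbol in the platform annotation. The brightest kept probe stood for its gene, giving 10246 genes. A single limma model of 8 group means was fitted to the 24 arrays (16 residual degrees of freedom), with 13 comparisons, and the two-sided p-values of each comparison were adjusted by the Benjamini-Hochberg method over all genes. Values of single probes come from a fit of all kept probes. The fit was tested on simulated data. Precision is limited by the 3 arrays of a group. Chips and scans are not identified in the sources used here, and their effects were not analysed here.

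The members, the lists and the rules were chosen with earlier results of these data known. By rule the text names all members, the 3 genes most correlated with each, and from each list at most 4 called genes with the largest differences at 0 h, as many at 24 h, and at most 2 with the opposite sign and a change of at least 1.5-fold. Some of these are left out. Counts of 5 or fewer may be named in full. Some items are not reported here.

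Arrays with the same replicate number at the same time deviated together (correlations of 0.11 to 0.38 in 12 pairs), so the numbers were taken to pair MST-312 and untreated arrays within a time. The main model has no term for these pairs, so its p-values are unpaired. The pairs were fitted only as an alternative setting. Across times the correlations ran from -0.15 to 0.28 in 18 pairs, not all above 0.1, so the numbers were not taken to pair arrays there.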

Additional observations from a re-analysis of the deposited data

Results flagged for a closer look

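The change since 0 h differed between MST-312 and untreated cells, by limma's interaction test, in 7 cases among the 8 genes and 3 times. Of all genes, 22.7% were called at 4 h, 20.1% at 8 h and 29.9% at 24 h. The count in either direction lies near those shares and says nothing particular of the group. All 7 differences were positive, where 11.2% of all genes were called positive at 4 h, 10% at 8 h and 14.5% at 24 h. IRF7 was called at each of the 3 times, which share the 0 h arrays, so the 7 are not separate evidence. For IRF7 the change with MST-312 minus the change without was 1.41 at 4 h (adjusted p = 6.24e-05), 1.79 at 8 h (adjusted p = 4.95e-06) and 1.96 at 24 h (adjusted p = 6.56e-07). For STAT3 it was 0.51 at 8 h (adjusted p = 0.0147) and 0.62 at 24 h (adjusted p = 0.00232). For IRF9 it was 0.46 at 24 h (adjusted p = 0.0244), and for the brightest IRF5 probe 1.06 at 4 h (adjusted p = 0.000249). The STAT3 call at 8 h was lost under median scaling. The IRF9 call was lost under median scaling and without some single arrays. The groups of 3 arrays are too small for a test of single outlying arrays.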

How the results depend on the processing

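Each value was recomputed under 13 alternative settings and without each of the 24 arrays. The authors' values and quantile normalisation without background correction had equal all-gene medians in every comparison, so those settings are not separate evidence. Of 1291 values under the settings, 1252 kept their side of the threshold and direction, 21 lost the call, 16 gained it and 2 reversed. Of 2496 values without an array, 2448 were the same, 36 lost the call, 12 gained it and 0 reversed. Changes of sign between values that were both uncalled are not counted as reversals and numbered 14 and 30. The 2 reversals came under median scaling, for MST-312 against untreated at 4 h: STAT3 at -0.31 (adjusted p = 0.0366) and IRF5 at -0.016 (adjusted p = 0.932). Under median scaling the median of all genes lay at -0.14, -0.29, -0.26 and -0.17 for MST-312 against untreated at 0, 4, 8 and 24 h. Median scaling also left 1 member called in the 8 h interaction, against 2. Without 1 array, the members called against untreated were 6 to 7 at 0 h, 4 to 5 at 4 h, 6 to 7 at 8 h and 6 to 7 at 24 h. After release they were 3 at 4 h, 3 to 5 at 8 h and 6 at 24 h with MST-312, 5 to 6 at 4 h, 5 at 8 h and 7 to 8 at 24 h in untreated cells, and 2 to 3, 2 and 2 to 4 in the interactions at 4, 8 and 24 h. The replicate number as a block over all arrays brought 1 value past the threshold, that of IRF1, MST-312 versus untreated at 8 h (-0.18, adjusted p = 0.0394). As a block within each time it brought only the IRF2 interaction at 8 h (0.54, adjusted p = 0.0455) past it and changed no other member's call between the treatments or in the interactions. The release comparisons could not be fitted with that block, since it holds the time. When detection p had to lie below 0.01 throughout a group, no IRF2 probe passed and IRF2 has no value. Probes near background, as those of IRF2 and the dimmest of IRF7, limit what the arrays can show.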
